A study of Homo sapiens with 16 samples.

Results

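The 9 genes described here make, store, take up and break down catecholamines: TH, DDC, DBH, GCH1, SLC18A1, SLC18A2, SLC6A2, MAOA and CHGA. They were chosen by symbol, and all 9 were found by Ensembl gene ID in both deposited tables, which hold 26410 genes. The cells were SH-SY5Y, a human neuroblastoma line of sympathetic type. In 2 clones (KO11 and KO28, labelled TRPM2 KO), a Cas9 vector with a TRPM2 guide RNA and a donor carrying GFP and puromycin resistance had been used to delete TRPM2, a calcium-permeable cation channel; in 2 control clones (Scr13 and Scr16), the guide was scrambled and the same markers were carried. Each clone was sequenced in 2 replicates without treatment and in 2 replicates after 24 h in doxorubicin, a topoisomerase poison, which gave 4 groups of 4 libraries. The sample labels and the study's supplement give 0.3 µM doxorubicin for the sequenced cells, and the text of the whole data set gives 3 µM. Each genotype is represented by 2 clones of 1 line, so a difference between genotypes cannot be told apart from a difference between these clones. The study's methods call the replicates of a clone biological, and the sources used here do not describe how they were separated.

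Catecholamines are built from tyrosine. Tyrosine hydroxylase (TH) makes L-DOPA with tetrahydrobiopterin as cofactor, and GTP cyclohydrolase (GCH1) opens the synthesis of that cofactor. Aromatic L-amino acid decarboxylase (DDC) then makes dopamine, and dopamine beta-hydroxylase (DBH), inside the vesicle, makes noradrenaline. The vesicular monoamine transporters VMAT1 (SLC18A1) and VMAT2 (SLC18A2) load amines into vesicles, where chromogranin A (CHGA) is a core protein of the dense-core granule. The noradrenaline transporter (SLC6A2) returns released amine to the cell, and monoamine oxidase A (MAOA) of the mitochondrial outer membrane breaks it down. Products of this pathway are used clinically to detect neuroblastoma.

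The DNA before 3 of the RefSeq start sites is shown because DBH was by far the most abundant of the 9 transcripts, while CHGA and SLC18A2 were near the bottom and their sequences hold the complete cAMP response element. In the first sequence, the 250 bases before the RefSeq start of DBH (chr9:133636113-133636362, plus strand), capitals mark the shorter core TGACG of that element and the homeodomain core ATTA, on either strand. In the other two, 28 bases each from chr14:92923086-92923113 and chr10:117241056-117241083 (plus strand, RefSeq, GRCh38.p14), capitals mark the complete element TGACGTCA.
DBH: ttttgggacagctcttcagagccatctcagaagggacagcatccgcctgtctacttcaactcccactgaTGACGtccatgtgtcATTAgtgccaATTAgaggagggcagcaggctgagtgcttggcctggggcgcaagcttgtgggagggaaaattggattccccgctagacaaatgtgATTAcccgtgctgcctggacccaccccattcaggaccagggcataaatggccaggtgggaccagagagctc
CHGA: gcggcaccgcTGACGTCAtttccggggt
SLC18A2: cctccggccgTGACGTCAgagccggacg
Among 35116 RefSeq promoter windows of the same 250 bases, the complete element was found in 1.65%, the core TGACG in 21.2% and ATTA in 47.4%, counting both strands. The core is contained in the complete element, so these matches overlap. DBH held 1 match to TGACG, from base -181 to base -177 before its RefSeq start, and 3 matches to ATTA. An E-box (CANNTG) was found in 61.8% of all windows and 3 times in that of DBH. AP-1 letters (TGANTCA), found in 6.57% of windows, GATA letters (AGATAA or TGATAA), found in 14.6%, and TAATTA, found in 4.35%, had no match in the windows of DBH, CHGA, SLC18A2, DDC or MAOA. For DDC, whose 2 listed starts were both read, the matches were 5 to ATTA and 2 to the E-box, and the window of MAOA held 1 of each. Sequences for TH, GCH1, SLC18A1 and SLC6A2 were not analysed here. RefSeq starts differ from those of GENCODE 29, which places the start of DBH at base 133635348, CHGA at 92923080 and SLC18A2 at 117241073. By GENCODE 29 the printed DBH and CHGA sequences lie inside the genes, and that of SLC18A2 spans the start. A match describes the letters and is not evidence of a bound site.

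TRPM2 itself was examined before the catecholamine genes. According to the study's methods, the editing took out only the start of its coding sequence and put the rest out of frame, and the clones were checked by RT-PCR and Western blot. Reads are counted here over the whole gene, so they do not check that deletion. Without treatment it had 3 and 2 reads in Scr13 and 0 and 0 in Scr16, against 35 and 37 in KO11 and 21 and 30 in KO28. The libraries labelled TRPM2 KO thus held more TRPM2 reads than every control library, with means of 1.94 ± 0.378 and 0.0583 ± 0.0673 CPM (SD, n = 4). The fitted log2 difference was 1.47 (limma, adjusted p = 0.00154), and as no untreated control reached 1 CPM, TRPM2 entered this test only through the group in which it was high. After doxorubicin the controls had 1, 1, 14 and 6 reads and the libraries labelled TRPM2 KO had 19, 29, 21 and 11, and the difference of 0.69 did not pass the test (limma, adjusted p = 0.249). Where these reads lie along the gene was not analysed here. The groups follow the labels and are called libraries labelled TRPM2 KO.

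The cells carried the sympathetic neuroblast programme. All 15 of 15 genes on a list of neuroblast and sympathetic markers were analysed, their values summed to between 6650 and 8217 CPM in each library, and the most abundant was STMN2, a neuronal microtubule regulator, with a mean of 1629 CPM. The neuronal tubulin TUBB3 was low, with group means of 3.90 and 1.94 CPM in the libraries labelled TRPM2 KO before and after doxorubicin. Of 8 Schwann cell markers, 4 were analysed, and they summed to between 1.82 and 5.87 CPM per library. No library stood apart as a whole: the median correlation of each with the other 3 of its group (log2 values of 11487 genes with a mean of at least 5 CPM) lay between 0.9707 and 0.9880.

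Values are given as normalized CPM, reads divided by a library's scaled total. Per kilobase of exon, the scale on which genes can be set against each other, DBH stood at 420 ± 65.8 CPM per kb (SD over 16 libraries), and its lowest library was above the highest of any other member. SLC6A2 followed at 46.8 ± 5.15, DDC at 33.05 ± 7.20, SLC18A1 at 18.7 ± 3.87 and GCH1 at 17.3 ± 5.04 CPM per kb. The ranges of these neighbours overlapped from SLC6A2 down to GCH1. MAOA stood lower, at 5.09 ± 1.04 CPM per kb, with no overlap with GCH1, and its range met that of CHGA through 1 CHGA value alone. CHGA, at 0.961 ± 2.03, SLC18A2, at 0.875 ± 0.371, and TH, at 0.101 ± 0.106 CPM per kb, formed the low end, and their ranges overlapped with each other. The CHGA mean rests on 1 library, untreated KO11 replicate 2, and without it, left out after its value was seen, the level was 0.457 ± 0.257 CPM per kb (SD over 15 libraries), below that of SLC18A2. The enzymes on either side of dopamine differed 12.7-fold in level per kb between DBH and DDC, and VMAT1 exceeded VMAT2 21.4-fold.

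**Figure D1:**
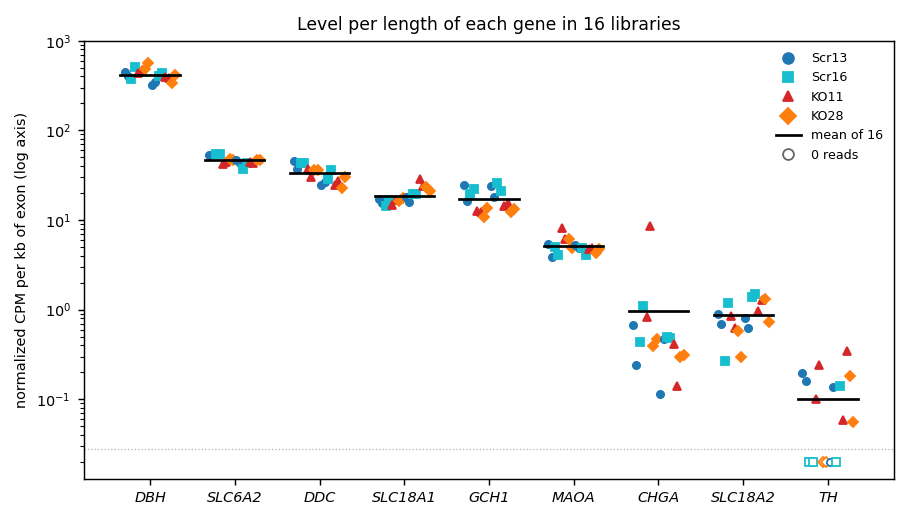
Level of each of the 9 genes in each of the 16 libraries, as normalized CPM per kb of exon on a log axis, in order of their mean (black line); symbols and colours give the clone, and open symbols under the dotted line are libraries with 0 reads. DBH stands above all other members in every library, and TH had 0 reads in 6 of 16 libraries.

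Of the 9 genes, 8 passed the filter on low values (at least 1 CPM in at least 4 libraries) in every comparison, and TH passed in none. In the untreated comparison of genotypes, 2 of the 8 passed an adjusted p of 0.05, against 4.84% of the 14364 genes tested. The same number passed after doxorubicin, against 8.69% of 14572 genes. Doxorubicin changed 2 of the 8 in the scrambled controls, against 12.3% of 14378 genes, and 5 of the 8 in the libraries labelled TRPM2 KO, against 19.6% of 14513 genes. With no filter on low values, 5 of these calls ended: SLC6A2 between untreated genotypes (adjusted p = 0.0506), SLC18A1 between treated genotypes (0.0553), and DBH, MAOA and CHGA with doxorubicin in the libraries labelled TRPM2 KO (0.0864, 0.0861 and 0.274). The untreated libraries serve in a genotype and in a doxorubicin comparison, so these counts are not independent.

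**Figure D2:**
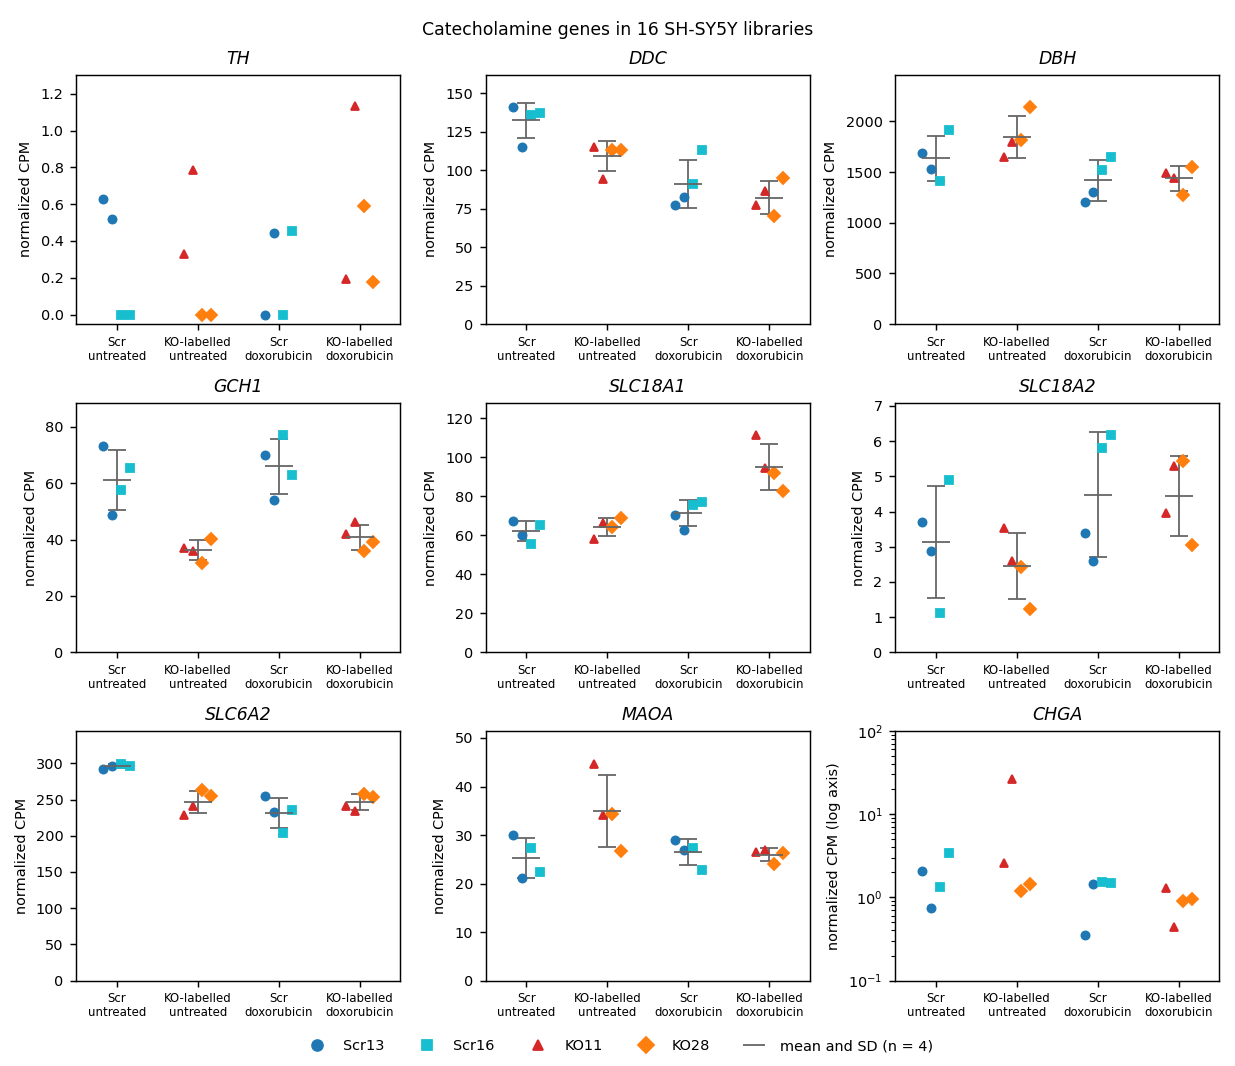
Normalized CPM of the 9 genes in the 4 groups, with 1 symbol per library, coloured by clone, and bars for the mean and SD of 4 libraries (not drawn for TH and CHGA; CHGA is on a log axis, all other axes are linear). GCH1 is lower in all libraries labelled TRPM2 KO than in all controls under both conditions, and SLC6A2 is highest in the 4 untreated controls.

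TH, the rate-limiting enzyme, was near the floor of detection. Its reads numbered 16 and 9 in Scr13 and 0 and 0 in Scr16 without treatment, and 6 and 13 in KO11 and 0 and 0 in KO28. After doxorubicin, the counts were 0 and 7 in Scr13, 0 and 7 in Scr16, 3 and 18 in KO11 and 9 and 3 in KO28. A count of 0 allows up to 3 reads, which is between 0.118 and 0.285 CPM depending on the library, and 8 of the 16 libraries held 3 reads or fewer. The highest value was 1.13 CPM, in KO11 after doxorubicin. The groups overlapped in all 4 comparisons. By the exact permutation test, two-sided, p was 1 between untreated genotypes, 0.343 between treated genotypes (0.224 CPM in the controls and 0.523 CPM in the libraries labelled TRPM2 KO), 0.657 for the drug in the controls and 0.371 for the drug in the libraries labelled TRPM2 KO, with 0.0286 the smallest p that 4 against 4 allows. No difference was thus detectable at this depth. TH lies at chr11:2163929-2171877 on the minus strand (GENCODE 29, GRCh38).

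GCH1, which controls the supply of the tetrahydrobiopterin that TH needs, showed the clearest genotype difference. Untreated controls had 73.2 and 48.6 CPM in Scr13 and 57.6 and 65.3 CPM in Scr16, and the libraries labelled TRPM2 KO had 37.0 and 36.0 CPM in KO11 and 31.9 and 40.2 CPM in KO28. After doxorubicin, the controls had 70.1 and 53.9 CPM in Scr13 and 77.0 and 62.8 CPM in Scr16, and the libraries labelled TRPM2 KO had 42.0 and 46.1 CPM in KO11 and 35.9 and 39.1 CPM in KO28. The lowest control lay above the highest library labelled TRPM2 KO under either condition. Group means were 61.2 ± 10.5 and 36.3 ± 3.44 CPM without treatment (SD, n = 4), a log2 difference of -0.73 (SE 0.117, limma, adjusted p = 0.000401). After doxorubicin they were 65.9 ± 9.92 and 40.8 ± 4.34 CPM, a log2 difference of -0.67 (SE 0.113, limma, adjusted p = 0.00033). With each clone reduced to its mean, so that 2 clones stood against 2, the difference still passed, with adjusted p-values of 0.000789 and 0.00339 (limma), and the highest over all alternatives were 0.0211 and 0.0268. Doxorubicin moved GCH1 little in either genotype, by 0.11 on the log2 scale in the controls (95% confidence interval -0.14 to 0.36; limma, adjusted p = 0.622) and by 0.16 in the libraries labelled TRPM2 KO (-0.06 to 0.39; limma, adjusted p = 0.32). GCH1 lies at chr14:54842008-54902852 on the minus strand and shares no exonic base with another gene.

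Markers of the mesenchymal neuroblastoma state moved with the same split of the clones. Of 20 such genes, 18 were analysed, and the most abundant was vimentin (VIM), with a mean of 275 CPM. Their summed level without treatment was 1033 and 655 CPM in Scr13, 757 and 822 CPM in Scr16, 1037 and 981 CPM in KO11 and 1213 and 1170 CPM in KO28. After doxorubicin it was 765 and 682 CPM in Scr13, 932 and 855 CPM in Scr16, 1211 and 994 CPM in KO11 and 1324 and 1123 CPM in KO28. All treated libraries labelled TRPM2 KO lay above the treated controls, whereas untreated Scr13 replicate 1 lay within the range of the untreated libraries labelled TRPM2 KO. In the untreated comparison, 7 of the 14 tested were higher and 2 lower in the libraries labelled TRPM2 KO, and after doxorubicin 9 and 2 of 14, where 4.84% and 8.69% of all genes passed. The filter admits a gene that is present in 1 group alone, which favours a call. Without the genes that reached 1 CPM in no control library (DCN untreated, and LUM and DCN after doxorubicin), 6 of 13 were higher and 2 lower untreated, and 7 of 12 and 2 after the drug. Without treatment, lumican (LUM) had 10.7 ± 2.01 CPM in them against 1.32 ± 1.23 CPM in the controls (limma, adjusted p = 8.71e-06) and fibronectin (FN1) 228 ± 57.9 against 86.4 ± 53.4 CPM (limma, adjusted p = 0.000965). YAP1 and COL1A1 were also higher. The transcription factors TWIST1 and PRRX2, named after their values were seen, were the 2 that were lower. Over all 16 libraries, TWIST2, WWTR1 and RUNX1 had means under 1 CPM. The part of these genes in the GCH1 difference was not tested. In these bulk libraries, fewer cells of a state and less RNA per cell cannot be told apart.

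SLC6A2, the noradrenaline transporter, was highest in the untreated controls, and the ranges of the other 3 groups overlapped. Untreated controls had 292 and 297 CPM in Scr13 and 299.9 and 297 CPM in Scr16, and libraries labelled TRPM2 KO had 229 and 241 CPM in KO11 and 262.7 and 254 CPM in KO28. After doxorubicin, the controls had 255 and 234 CPM in Scr13 and 204 and 235 CPM in Scr16, and the libraries labelled TRPM2 KO had 241 and 235 CPM in KO11 and 258 and 253 CPM in KO28. The untreated controls overlapped with no library of the other groups. Untreated, the libraries labelled TRPM2 KO were lower by a log2 difference of -0.27 (SE 0.0647, limma, adjusted p = 0.017). Doxorubicin lowered the transporter in the controls from 296 ± 3.35 to 232 ± 21.0 CPM (SD, n = 4), a log2 change of -0.36 (SE 0.0693, limma, adjusted p = 0.00195). In the libraries labelled TRPM2 KO, the mean was 247 CPM before and after the drug, and the log2 change was 0.001 (95% confidence interval -0.14 to 0.14). The 2 doxorubicin changes differed by 0.36 on the log2 scale with an unadjusted p of 0.000613, but not after adjustment over 15325 genes (limma, adjusted p = 0.155). The untreated genotype call ended when Scr13 replicate 2, Scr16 replicate 2, KO11 replicate 1 or KO11 replicate 2 was left out (adjusted p of 0.0504, 0.0521, 0.0591 and 0.0562), without clone Scr13, Scr16 or KO11 (0.174, 0.216 and 0.113) and with clone means (0.11). Within Scr13 alone the drug's change was -0.27 (limma, adjusted p = 0.108). SLC6A2 (chr16:55655604-55706192, plus strand) shares 17.9% of its exonic bases with AC136621.1 on the same strand, and how the counting divided such reads is not given in the sources used here.

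SLC18A1, the vesicular transporter of endocrine-type chromaffin cells, rose with the drug in the libraries labelled TRPM2 KO. They had 57.9 and 66.1 CPM in KO11 and 64.2 and 68.9 CPM in KO28 without treatment, and 111 and 94.3 CPM in KO11 and 91.9 and 82.6 CPM in KO28 after the drug. The controls had 67.6 and 60.3 CPM in Scr13 and 55.6 and 65.3 CPM in Scr16 without treatment, and 70.5 and 62.5 CPM in Scr13 and 75.4 and 77.2 CPM in Scr16 after it. All 4 treated libraries labelled TRPM2 KO lay above every other library. The log2 change with doxorubicin was 0.55 in them (SE 0.0925, limma, adjusted p = 8.45e-05), and in the controls 0.20 (SE 0.0934), which did not pass (limma, adjusted p = 0.194). The difference between the 2 changes was 0.36 and did not pass either (limma, adjusted p = 0.468). After the drug, the libraries labelled TRPM2 KO stood higher than the controls, at 95.02 ± 11.95 against 71.4 ± 6.58 CPM, a log2 difference of 0.40 (SE 0.0969, limma, adjusted p = 0.00902). That call was lost without KO11 replicate 1 (adjusted p = 0.0649), without clone Scr13 (0.1) and without clone KO11 (0.272), and the change with the drug within KO28 alone had an adjusted p of 0.0752. SLC18A1 is a gene of chromosome 8 and overlaps no other exon.

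SLC18A2, the transporter of neurons, was low and variable. Values in the untreated controls were 3.70, 2.88, 1.10 and 4.88 CPM, and in untreated KO11 and KO28 they were 3.53, 2.59, 2.41 and 1.24 CPM. After doxorubicin the controls had 3.39, 2.59, 5.80 and 6.17 CPM and the libraries labelled TRPM2 KO 3.97, 5.29, 5.43 and 3.05 CPM. Groups overlapped in every comparison. The largest of the fitted differences was that with doxorubicin in the libraries labelled TRPM2 KO, 0.68 on the log2 scale with a 95% confidence interval of 0.15 to 1.20 (limma, adjusted p = 0.0637). The annotation places 52% of its exonic bases opposite PDZD8 on the other strand. The library kit kept strand, but the strand setting of the counting is not given in the sources used here, so reads of PDZD8 may be included.

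DDC fell with doxorubicin in both genotypes. The untreated controls had 141 and 115 CPM in Scr13 and 136 and 137 CPM in Scr16, and the treated ones had 77.6 and 82.3 CPM in Scr13 and 90.8 and 113 CPM in Scr16. The libraries labelled TRPM2 KO had 115 and 94.4 CPM in KO11 and 113 and 113 CPM in KO28 before, and 77.4 and 86.2 CPM in KO11 and 70.6 and 94.7 CPM in KO28 after the drug. Treated and untreated controls did not overlap, and in the other genotype KO28 replicate 2 after the drug reached just above KO11 replicate 2 before it. The log2 change was -0.55 in the controls (SE 0.0898, limma, adjusted p = 0.000441) and -0.41 in the libraries labelled TRPM2 KO (SE 0.0925, limma, adjusted p = 0.00223), and all 4 clones changed in this direction, by -0.35 to -0.67. Within Scr16 alone the change, -0.43, did not pass (limma, adjusted p = 0.107). The 2 changes differed by 0.14 (95% confidence interval -0.14 to 0.42). Between untreated genotypes the log2 difference of -0.28 did not pass (limma, adjusted p = 0.0703), but did with DESeq2 (0.0473) and without Scr13 replicate 2 (0.0294). DDC (chr7:50458436-50565457, minus strand) shares 3.64% of its exonic bases with the antisense gene DDC-AS1.

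DBH, the enzyme that makes noradrenaline, fell with doxorubicin in the libraries labelled TRPM2 KO. They had 1644 and 1793 CPM in KO11 and 1811 and 2140 CPM in KO28 without treatment, against 1489 and 1440 CPM in KO11 and 1270 and 1554 CPM in KO28 after the drug. The controls had 1690 and 1527 CPM in Scr13 and 1409 and 1916 CPM in Scr16 before, and 1204 and 1301 CPM in Scr13 and 1516 and 1650 CPM in Scr16 after it. The former groups did not overlap, whereas those of the controls did. The log2 change was -0.36 in the libraries labelled TRPM2 KO (SE 0.088, limma, adjusted p = 0.00445) and -0.21 in the controls (SE 0.0915, limma, adjusted p = 0.156), and the difference between them, -0.15, did not pass (limma, adjusted p = 0.832). Within KO11 alone the change, -0.23, did not pass (limma, adjusted p = 0.162), and without untreated Scr16 replicate 1 the change in the controls did, at -0.33 (0.00795). DBH ranked above 99.89% of all genes by mean CPM. It lies at chr9:133635348-133659344 on the plus strand and shares 3.12% of its exonic bases with DBH-AS1.

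MAOA was highest in KO11 and KO28 without treatment and fell with doxorubicin in these clones. They had 44.7 and 34.0 CPM in KO11 and 34.4 and 26.6 CPM in KO28 before, and 26.4 and 27.0 CPM in KO11 and 23.9 and 26.2 CPM in KO28 after the drug. The untreated controls had 30.0, 21.2, 27.3 and 22.4 CPM and the treated controls 28.9, 26.9, 27.3 and 22.7 CPM. The groups overlapped in each comparison. The fall was -0.40 on the log2 scale (SE 0.126, limma, adjusted p = 0.0256), and leaving out any 1 of 4 libraries (KO11 replicate 1 or KO28 replicate 1 untreated, KO11 replicate 1 or 2 treated) ended the call, with adjusted p up to 0.163, and within KO28 alone it was 0.55. In the controls the change was 0.07 (limma, adjusted p = 0.796). The untreated genotype difference of 0.44 did not pass (limma, adjusted p = 0.104), but did without KO28 replicate 2 (0.0199) and without clone KO28 (0.0306). MAOA lies at chrX:43654907-43746824 on the plus strand.

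CHGA, usually abundant in neuroendocrine cells, was low except in 1 library. Untreated controls had 2.09, 0.749, 1.35 and 3.41 CPM and treated controls 0.356, 1.45, 1.52 and 1.49 CPM. The libraries labelled TRPM2 KO had 2.59 and 26.4 CPM in KO11 and 1.21 and 1.46 CPM in KO28 before, and 1.28, 0.441, 0.916 and 0.957 CPM after the drug. The value of 26.4 CPM was 439 reads in KO11 replicate 2. With that library, CHGA fell with the drug in the libraries labelled TRPM2 KO by 1.36 on the log2 scale (limma, adjusted p = 0.0311), and without it the change was -0.56 and did not pass (limma, adjusted p = 0.299). The call also ended without treated KO11 replicate 1 (0.093) or 2 (0.122), with DESeq2 (0.087) and without the clone term (0.0619). CHGA lies at chr14:92923080-92935293 on the plus strand.

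**Figure D3:**
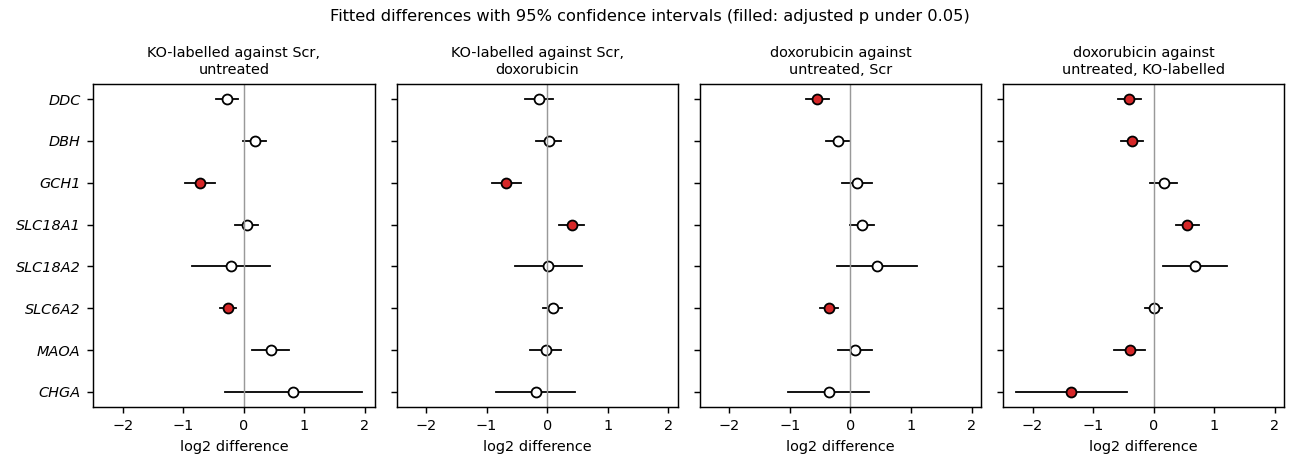
Fitted log2 differences of the 8 genes that passed the filter, with their 95% confidence intervals, in the 4 comparisons; filled circles passed an adjusted p of 0.05 (limma). GCH1 lies left of 0 in both genotype comparisons and DDC in both doxorubicin comparisons, and the interval of CHGA is the widest in the doxorubicin comparison of the libraries labelled TRPM2 KO.

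In the test of whether doxorubicin acted differently in the 2 genotypes, 0 of the 8 genes passed with limma, against 0.0261% of 15325 genes. At an unadjusted p under 0.05 there were 3 of the 8 (SLC18A1, SLC6A2 and MAOA), against 8.31% of all genes, edgeR's quasi-likelihood test called 0 and DESeq2 called 1, SLC6A2 (adjusted p = 0.0335).

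The 3 members with the widest range over the clones and treatments were CHGA, SLC18A2 and GCH1. The range of CHGA, 2.45 on the log2 scale, was set by untreated KO11 replicate 2, and without that library it was 0.99, below the 1.34 of SLC18A2 and close to the 0.94 of GCH1. Among 11487 genes with a mean of at least 5 CPM, the values most like those of GCH1 over the 16 libraries were of CERT1, a ceramide transfer protein (Pearson r = 0.952), EPB41L4B (0.934) and the unnamed gene ENSG00000280180 (0.923). For SLC18A2 they were EFCAB14 (0.924), LRP4 (0.856) and ZNF175 (0.841), and for CHGA they were GALNT13 (0.754), MRPL50 (0.734) and SERP1 (0.732). Without that library the coefficients with CHGA were 0.568, 0.805 and 0.655 over 15 libraries. The points share clones and treatments, so these coefficients are descriptions without a test.

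The rest of the pathway was examined by lists. Of 8 genes for tetrahydrobiopterin and aromatic amino acid hydroxylation, GCH1 not among them, 7 were tested. None differed between genotypes by limma in either condition. With doxorubicin 1 of the 7 passed in each genotype, lower after the drug, a share close to that of all genes tested (12.3% in the controls and 19.6% in the libraries labelled TRPM2 KO). The median log2 change of the list was -0.33 in the controls and -0.21 in the libraries labelled TRPM2 KO, against -0.01 and 0.02 over all genes tested.

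Of 13 other catecholamine enzymes, 10 were tested, and the most abundant was CYB561, the granule cytochrome that supplies reducing power to DBH, with a mean of 365 CPM. PNMT, which converts noradrenaline to adrenaline, was lower in the libraries labelled TRPM2 KO, at 1.77 ± 0.580 against 4.42 ± 1.05 CPM without treatment (limma, adjusted p = 0.021) and 2.64 ± 1.42 against 6.24 ± 0.675 CPM after doxorubicin (limma, adjusted p = 0.0154). PNMT was 1 of 10 to pass in each of these comparisons, where 4.84% and 8.69% of all genes passed. With doxorubicin 2 of the 10 passed in the controls and 3 in the libraries labelled TRPM2 KO, where 12.3% and 19.6% of all genes passed. COMTD1 rose and the aldehyde dehydrogenase ALDH9A1 fell in both genotypes. The aldose reductase AKR1B1, which reduces aldehydes, fell in the libraries labelled TRPM2 KO from 162 ± 0.876 to 123 ± 9.72 CPM (limma, adjusted p = 0.000324). In the controls AKR1B1 had 161 ± 6.18 CPM before and 143.9 ± 2.15 CPM after the drug, which did not pass (limma, adjusted p = 0.131). The difference between these changes did not pass either (limma, adjusted p = 0.504).

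Granule cargo split in both directions. Of 18 genes 11 were tested, and 3 were higher and 2 lower in the libraries labelled TRPM2 KO without treatment, with the same counts after doxorubicin (4.84% and 8.69% of all genes passed). Neuropeptide Y (NPY) was lower, at 96.9 ± 3.37 against 153 ± 24.1 CPM untreated (limma, adjusted p = 0.000105), as was galanin (GAL), at 37.6 ± 4.19 against 58.7 ± 6.93 CPM (limma, adjusted p = 0.00074). Secretogranin II (SCG2) was higher, at 325 ± 17.7 against 236 ± 35.2 CPM (limma, adjusted p = 0.00173), and so was the vasoactive peptide VIP, at 99.7 ± 16.2 against 64.4 ± 10.6 CPM (limma, adjusted p = 0.00191). After doxorubicin these 4 genes passed in the same directions. The drug raised VGF, the most abundant cargo gene, with a mean of 1342 CPM, from 959 ± 80.7 to 1387 ± 320.2 CPM in the controls (limma, adjusted p = 0.00128). In the controls SCG3 fell from 304 ± 7.46 to 244 ± 9.72 CPM (limma, adjusted p = 0.00229) and VIP from 64.4 ± 10.6 to 48.2 ± 4.95 CPM (limma, adjusted p = 0.0303). In the libraries labelled TRPM2 KO, CPE, SCG2, VGF and CHGB rose and SCG3 fell. The log2 changes of CPE, SCG2 and CHGB in the controls were 0.21, 0.12 and 0.30. These did not pass (limma, adjusted p = 0.14, 0.416 and 0.0762). In the test of whether the change differed between genotypes, 0 of the 11 passed by limma. With the drug, 3 of the 11 passed in the controls and 5 of the 11 in the libraries labelled TRPM2 KO, where 12.3% and 19.6% of all genes passed.

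Of 21 genes of dense-core vesicle biogenesis and release, 19 were tested. The SNARE protein SNAP25 was lower in the libraries labelled TRPM2 KO, at 145 ± 4.66 against 210.2 ± 10.0 CPM untreated (limma, adjusted p = 2.43e-05), as were SYT4 and SV2C, and these were the 3 of 19 that passed, against 4.84% of all genes. After doxorubicin SNAP25, SV2C and PTPRN2 were the 3 that passed, all lower, against 8.69% of all genes, and SYT4 did not pass (limma, adjusted p = 0.202). With doxorubicin 6 rose and 0 fell in the controls, and 7 rose and 1 fell in the libraries labelled TRPM2 KO, where 12.3% and 19.6% of all genes passed. RAB3A, a vesicle GTPase, rose from 34.2 ± 5.57 to 54.1 ± 9.32 CPM in the controls (limma, adjusted p = 0.00231) and from 43.4 ± 5.48 to 62.2 ± 7.28 CPM in the libraries labelled TRPM2 KO (limma, adjusted p = 0.000734). The largest rise in the controls on the log2(CPM + 1) scale was that of BAIAP3, a low gene that went from 1.13 ± 0.378 to 2.86 ± 0.652 CPM (limma, adjusted p = 0.048), and the granule membrane protein PTPRN2 rose from 99.7 ± 11.7 to 152 ± 9.09 CPM (limma, adjusted p = 7.29e-05). Its relative PTPRN rose there from 196 ± 11.99 to 288 ± 44.0 CPM (limma, adjusted p = 4.84e-05). The median log2 change of the list was 0.08 in the controls and 0.19 in the libraries labelled TRPM2 KO, against -0.01 and 0.02 over all genes.

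Few other amine transporters and receptors were expressed. The low-affinity monoamine transporter SLC29A4 rose with doxorubicin from 173 ± 6.19 to 233 ± 18.3 CPM in the controls (limma, adjusted p = 0.000313) and from 199 ± 24.3 to 249.8 ± 23.6 CPM in the libraries labelled TRPM2 KO (limma, adjusted p = 0.00243). Of its list of 7, 4 were analysed, and SLC29A4 was the 1 gene tested in the controls and 1 of the 2 tested in the libraries labelled TRPM2 KO, where 12.3% and 19.6% of all genes passed with the drug. Between treated genotypes, the cation exporter SLC47A1 was higher in the libraries labelled TRPM2 KO, at 3.83 ± 1.04 against 1.42 ± 1.23 CPM (limma, adjusted p = 0.0307). Of 14 catecholamine receptors, 6 were analysed and 3 tested, of which 1 passed in each genotype comparison, where 4.84% and 8.69% of all genes passed, and 1 with the drug in the libraries labelled TRPM2 KO, where 19.6% passed. The alpha-2A adrenoceptor gene ADRA2A was higher in the libraries labelled TRPM2 KO, at 10.8 ± 2.43 against 2.62 ± 0.714 CPM untreated (limma, adjusted p = 3.82e-05) and 8.46 ± 0.946 against 1.80 ± 0.370 CPM after doxorubicin (limma, adjusted p = 1.73e-05). The dopamine receptor DRD2 rose with the drug in the libraries labelled TRPM2 KO from 27.2 ± 6.49 to 42.0 ± 2.72 CPM (limma, adjusted p = 0.000686). In the controls DRD2 had 24.6 ± 6.25 CPM before and 34.8 ± 7.17 CPM after the drug, which did not pass (limma, adjusted p = 0.0578). The difference between these changes did not pass either (limma, adjusted p = 0.925).

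Of 15 transcription factors of the adrenergic state, 14 were analysed, and their levels varied widely. HAND2 was the most abundant, with a mean of 1486 CPM, while EGR1 had 45.4, NR4A1 33.6 and INSM1 0.0166 CPM. Of 13 tested, 4 were higher and 1 was lower in the libraries labelled TRPM2 KO without treatment, and 4 and 2 after doxorubicin, where 4.84% and 8.69% of all genes passed. EGR1, an immediate-early factor, was higher, at 37.3 ± 5.96 against 21.6 ± 4.84 CPM untreated (limma, adjusted p = 0.00387) and 80.6 ± 7.20 against 42.1 ± 3.53 CPM after doxorubicin (limma, adjusted p = 1.08e-06). With doxorubicin 4 rose and 1 fell in the controls, and 5 rose and 2 fell in the libraries labelled TRPM2 KO, where 12.3% and 19.6% of all genes passed. EGR1, NR4A1, HAND2 and KLF7 rose in both genotypes and ISL1 fell in both. TFAP2B fell in the libraries labelled TRPM2 KO from 468 ± 27.5 to 312 ± 20.9 CPM (limma, adjusted p = 7.23e-07). In the controls TFAP2B had 485 ± 64.3 CPM before and 430.5 ± 91.2 CPM after the drug, which did not pass (limma, adjusted p = 0.203). The difference between these changes, -0.40 on the log2 scale, did not pass either (limma, adjusted p = 0.278).

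**Figure D4:**
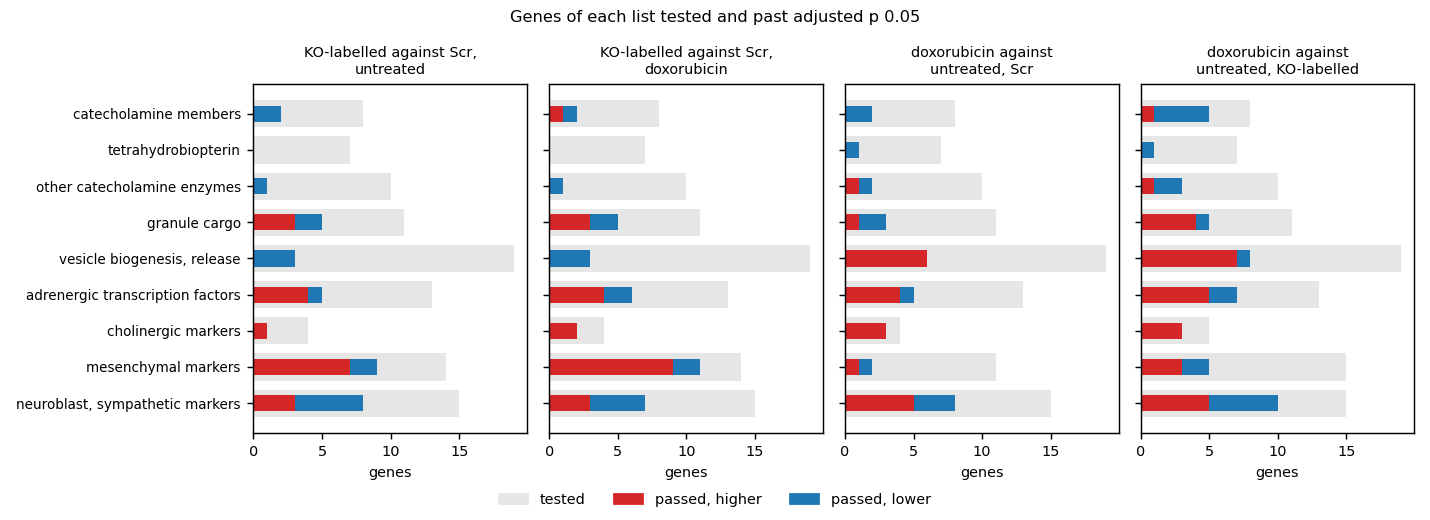
Number of genes tested (grey) and past an adjusted p of 0.05 (red, higher; blue, lower; limma) in 9 gene lists for each of the 4 comparisons. Between untreated genotypes, where 4.84% of all genes passed, the mesenchymal list has 9 of 14 genes past the threshold, including DCN, which met the filter through the libraries labelled TRPM2 KO alone. With doxorubicin in the controls, where 12.3% of all genes passed, the vesicle list has 6 of 19 past it, all higher.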

How the data were processed

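RNA from 16 SH-SY5Y libraries was made by poly(A) selection with a directional kit. Per the labels, the authors used bcl2fastq, HISAT2 2.1.0, HTSeq and edgeR with GRCh38; the annotation, the strand setting and filters are not given in the sources used here. The deposited signal is CPM scaled by the authors' normalization. Every value (100%) was a whole multiple of the worth of 1 read within 0.001 read, so counts were recovered from the deposited values; they summed to between 10481177 and 25086085 per library. Deposited columns of fold changes, p-values, q-values and ranks hold the authors' comparisons and were not used. Members and lists were chosen with earlier results of these data known.

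Values were tested as log2(CPM + 1) with limma 3.58.1 (trend) over genes with at least 1 CPM in at least 4 libraries, with Benjamini-Hochberg adjustment; fold changes of low genes are understated on this scale. Genotypes were compared without a covariate, and doxorubicin and the interaction with clone as a covariate. Positive values mean higher in the libraries labelled TRPM2 KO or after doxorubicin. The method was tested on simulated data drawn without differences between clones, so that test does not cover such differences. Single values were compared by exact permutation (scipy). P-values measure the spread between these libraries. Alternatives were edgeR 4.0.16 and DESeq2 1.42.0 on the recovered counts, other filters and scalings, and left-out libraries and clones. All 9 members were named; from each list, names were drawn from the 4 genes with the largest differences past the threshold, or the 2 most abundant where none passed, and genes named as most abundant, low or exceptions were chosen after their values were seen; some list genes are not reported here. Floors (3 reads) cover counting error only. Exon lengths and overlaps came from GENCODE 29.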

Additional observations from a re-analysis of the deposited data

Results flagged for a closer look

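In each group of 4 libraries, the gap between the highest or lowest value and its neighbour was compared with the range of the group. Of 36 such groups for the 9 genes, 3 held a value whose gap exceeded Dixon's 95% critical value for 4 samples, and about 1 group in 20 does so by chance. CHGA was 26.4 CPM in KO11 replicate 2 without treatment, where the other 3 libraries of the group lay between 1.21 and 2.59 CPM. DDC was 94.4 CPM in the same library, the lowest of its group, where the others had 113 to 115 CPM. CHGA was 0.356 CPM, from 6 reads, in Scr13 replicate 1 after doxorubicin, where the others had 1.45 to 1.52 CPM. In the test of whether the response to doxorubicin differed between genotypes, no member passed with limma or edgeR, and SLC6A2 passed with DESeq2 (adjusted p = 0.0335).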

How the results depend on the processing

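Of 11 member results past the threshold, 3 (GCH1 in both genotype comparisons and the fall of DDC in the libraries labelled TRPM2 KO) kept their call in every alternative and 8 lost it in some; none changed direction. The cause of the lost calls was not tested. There were 2 clones per genotype.

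The count of genes past the threshold fell between untreated genotypes from 695 to 368 with no filter, 330 without clone Scr13 and 327 without clone Scr16. After doxorubicin it fell from 1266 to 510 without clone KO11 and 575 without clone KO28, and lay between 814 and 1314 without 1 library. For doxorubicin in the controls, 1774 became 831 with no filter, 781 within Scr13, 237 within Scr16 and 1100 to 1739 without 1 library. In the libraries labelled TRPM2 KO, 2846 became 995 within KO28. For the interaction, 4 became 2 with no filter, 9 with edgeR, 55 with DESeq2, 10 without clone Scr13, 1 without Scr16, 0 without KO11 (limma), 1 without KO28 and 1 to 19 without 1 library. Replicate numbers did not pair the libraries (28 correlations of replicate differences from -0.1 to 0.12, 1 over 0.1); with a replicate block the counts were 697, 1365, 2113, 2948 and, for the interaction, 25, and MAOA between untreated genotypes passed (adjusted p = 0.0417).

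Directions turned only in member results that did not pass. Between untreated genotypes these were CHGA (-0.231 without clone KO11; -0.0232 to 1.19 without 1 library), SLC18A1 (-0.00376 without clone KO28; -0.00396 to 0.0961) and SLC18A2 (0.0565 without clone KO28). After doxorubicin they were SLC18A2 (-0.0144 with edgeR, -0.0158 with DESeq2, -0.386 without Scr13, -0.0445 without KO11; -0.163 to 0.17), DBH (-0.141 without Scr13, -0.0022 without KO11; -0.0473 to 0.104), MAOA (0.0528 without Scr13, 0.0178 without KO28; -0.0943 to 0.0174) and DDC (0.0315 without Scr16). For the drug in the controls they were SLC18A2 (-0.106 within Scr13) and MAOA (-0.0367 to 0.155). In the libraries labelled TRPM2 KO it was SLC6A2 (-0.0135 with edgeR, -0.0144 with DESeq2, -0.0314 with library size only, -0.0176 within KO28; -0.0176 to 0.0138). For the interaction they were GCH1 (-0.0145 without Scr13, -0.0454 without KO11; -0.0763 to 0.157), SLC18A2 (-0.31 without Scr13), DBH (0.00157 without Scr16) and CHGA (0.088 without KO11).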

Other observations

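Genes of cholinergic and neuroblast identity, outside the catecholamine pathway, also moved. Acetylcholinesterase (ACHE) rose with doxorubicin from 21.9 ± 4.76 to 44.2 ± 13.6 CPM in the controls (SD, n = 4; limma, adjusted p = 0.000569) and from 24.5 ± 2.69 to 56.3 ± 7.34 CPM in the libraries labelled TRPM2 KO (limma, adjusted p = 2.78e-08). Of 7 cholinergic markers, 3 of the 4 tested rose in the controls and 3 of the 5 tested in the libraries labelled TRPM2 KO, namely ACHE and the nicotinic receptor subunits CHRNA3 and CHRNB4 in each, where 12.3% and 19.6% of all genes passed. The vesicular acetylcholine transporter SLC18A3 was higher in the libraries labelled TRPM2 KO without treatment, at 121 ± 13.1 against 89.4 ± 9.46 CPM (limma, adjusted p = 0.00557). It was 1 of the 4 tested to pass, where 4.84% of all genes passed. After doxorubicin 2 of the 4 tested were higher in them, where 8.69% of all genes passed. These were SLC18A3 (limma, adjusted p = 0.00429) and CHRNA3, at 610 ± 20.1 against 446 ± 33.9 CPM (limma, adjusted p = 0.000193). CHAT and SLC5A7, which make acetylcholine and take up choline, had means of 0.711 and 0.261 CPM over all 16 libraries. Of 5 serotonergic markers 1 was tested, FEV, with a mean of 162 CPM, and it passed in no comparison by limma.

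Among the 15 neuroblast and sympathetic markers, 8 passed between untreated genotypes, 3 higher and 5 lower in the libraries labelled TRPM2 KO, where 4.84% of all genes passed. The receptor tyrosine kinase RET was lower there, at 286 ± 20.6 against 402 ± 29.1 CPM (limma, adjusted p = 0.00015), and it rose with doxorubicin to 678 ± 46.1 CPM in the controls (limma, adjusted p = 5.26e-07) and 598 ± 25.0 CPM in the libraries labelled TRPM2 KO (limma, adjusted p = 7.6e-12). Between treated genotypes RET did not pass (limma, adjusted p = 0.162), and 3 of the 15 were higher and 4 lower, where 8.69% of all genes passed. With the drug 5 of the 15 rose and 3 fell in the controls, where 12.3% of all genes passed. In the libraries labelled TRPM2 KO 5 rose and 5 fell, where 19.6% passed. Of 9 activity and cAMP response genes, the 7 tested between untreated genotypes had adjusted p from 0.227 (JUN) to 0.89 (FOS) by limma. Between treated genotypes 3 of 8 were higher in the libraries labelled TRPM2 KO, where 8.69% of all genes passed. With the drug 1 of the 7 tested rose in the controls (JUNB) and 4 of the 8 tested in the libraries labelled TRPM2 KO (EGR2, FOS, ATF3 and JUNB), where 12.3% and 19.6% of all genes passed. Without EGR2, the 3 of 8 between treated genotypes were 2 of 7. EGR2 had 2.15 ± 0.410 CPM in the treated libraries labelled TRPM2 KO and means under 1 CPM in the other 3 groups, so it was tested only in comparisons that hold that group. For the interaction of genotype and drug, the 8 had adjusted p by limma from 0.222 (EGR2) to 0.976 (CREM).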
